A study of Mus musculus with 10 samples.

Results

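Genes for enzymes and complexes that modify histones or DNA were followed through the ARID2 CUT&RUN lists of mouse spermatogenic cells. The genes are 60 symbols, looked up in the gene name column of both lists, of 21774 protein-coding genes in the RefSeq annotation, and each of the 60 symbols matched as written. They comprise 15 lysine methyltransferases, 8 Polycomb group genes, 14 histone demethylases, 9 acetyltransferases, 7 deacetylases and 7 genes of DNA methylation and hydroxymethylation. At P28, 14 of the 60 were named on a row of the ARID2-enriched cluster of transcription start sites (TSSs). That was 23.3%, where the background over all protein-coding genes was 16.8%. At P28.5, 15 were named (25.0%, background 11.6%), and 12 were named at both ages (20%, background 8.48%). Some rows lay away from the gene they named. Rows within 2000 bp of the gene's own 5′ end left 11 genes at P28 (background 13.7%) and 15 at P28.5 (background 11.4%).

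ARID2 is a subunit that distinguishes PBAF from the other mammalian SWI/SNF remodelers, and BRG1 is a catalytic ATPase that these remodelers share. CUT&RUN maps such proteins by tethering a nuclease to the antibody, so that DNA near the bound protein is cut out and sequenced. All samples were spermatogenic cells from testes of CD1 mice whose spermatogenesis had been synchronized by WIN 18,446, an inhibitor of retinoic acid synthesis given from P1 to P10, and then by a single injection of retinoic acid at P11. Cells were taken at P28 and at P28.5, and no mutant or untreated animals are among the samples used here. Each age had 2 ARID2 libraries, 2 BRG1 libraries and 1 control library without primary antibody. The preparations are mixtures enriched for late prophase-I and metaphase spermatocytes, and a list of TSSs gives no marker levels with which to check that enrichment.

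The authors averaged the replicates before clustering, so each age is represented by 1 list and these lists hold no spread between replicates. Tracks of single replicates were not analysed here. A row holds a position and a gene name, with no signal, count or strand. The lists had 11553 rows at P28 and 8514 at P28.5, which collapsed to 7144 and 5193 positions. Of the positions named for protein-coding genes, 42.3% at P28 and 49.3% at P28.5 equalled an annotated 5′ end of the named gene. Most positions that match an annotated transcript end are the low-coordinate end of a transcript. For plus-strand genes this end is the promoter, and for minus-strand genes it is the terminus. Listed genes made up 26% (P28) and 20.4% (P28.5) of plus-strand protein-coding genes, but 7.61% and 2.86% of minus-strand ones. A minus-strand gene that is not listed is therefore not shown to lack ARID2 at its promoter. The number of reads behind a listed TSS is unknown, and no p-value is given for any count.

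Lysine methyltransferases, acetyltransferases and the enzymes that remove these groups write and erase marks on histone tails that promoters, gene bodies and silent domains carry in different combinations. Polycomb repressive complex 2 methylates H3 at lysine 27 and Polycomb repressive complex 1 ubiquitylates H2A, and both keep developmental genes silent. DNA methyltransferases and TET enzymes set and remove cytosine methylation. In male germ cells these enzymes are known for their parts in meiotic recombination, sex chromosome silencing and the later exchange of histones for protamines.

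Promoters of 6 genes are printed because the listed position lies at an annotated 5′ end, the base on which the clustered window was centred. Setd1a, Bmi1, Hdac2 and Uhrf1 were listed there at both ages and, among the genes of their class so listed, had the most rows. Kdm1b shows a promoter that it shares with a gene on the other strand, and Suz12 one that was listed at P28.5 alone, these last 2 having been chosen after the lists were seen. Each sequence holds 250 bases before and 50 bases from the 5′ end, from RefSeq on GRCm38.p6, plus strand, and capitals mark matches to GGGCGG (Sp/KLF) or CCAAT (NFY) on either strand. Setd1a lies at chr7:127777139-127777438, Bmi1 at chr2:18676768-18677067, Suz12 at chr11:79992856-79993155, Kdm1b at chr13:47043249-47043548, Hdac2 at chr10:36974294-36974593 and Uhrf1 at chr17:56304063-56304362.
Setd1a: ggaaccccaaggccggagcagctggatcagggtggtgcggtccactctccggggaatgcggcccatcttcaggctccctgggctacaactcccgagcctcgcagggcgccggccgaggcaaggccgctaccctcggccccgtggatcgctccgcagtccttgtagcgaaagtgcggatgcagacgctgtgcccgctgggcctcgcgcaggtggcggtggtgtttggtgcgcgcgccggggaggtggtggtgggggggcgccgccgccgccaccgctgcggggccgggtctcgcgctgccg
Bmi1: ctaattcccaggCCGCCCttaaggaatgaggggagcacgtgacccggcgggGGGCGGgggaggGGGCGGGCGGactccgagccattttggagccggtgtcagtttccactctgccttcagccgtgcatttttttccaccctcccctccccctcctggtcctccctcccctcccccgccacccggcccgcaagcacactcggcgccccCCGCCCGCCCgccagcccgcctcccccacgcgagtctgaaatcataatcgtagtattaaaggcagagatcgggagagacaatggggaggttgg
Suz12: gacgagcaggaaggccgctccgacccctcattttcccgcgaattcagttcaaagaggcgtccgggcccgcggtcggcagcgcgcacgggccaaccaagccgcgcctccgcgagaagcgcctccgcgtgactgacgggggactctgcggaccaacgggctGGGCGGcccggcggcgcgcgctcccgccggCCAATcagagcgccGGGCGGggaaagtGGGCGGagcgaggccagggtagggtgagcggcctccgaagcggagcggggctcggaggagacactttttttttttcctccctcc
Kdm1b: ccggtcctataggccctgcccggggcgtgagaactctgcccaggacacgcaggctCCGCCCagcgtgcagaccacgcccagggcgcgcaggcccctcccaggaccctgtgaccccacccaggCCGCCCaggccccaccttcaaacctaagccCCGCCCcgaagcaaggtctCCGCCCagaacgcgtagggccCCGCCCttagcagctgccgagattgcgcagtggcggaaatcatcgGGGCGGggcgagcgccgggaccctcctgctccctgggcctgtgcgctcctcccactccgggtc
Hdac2: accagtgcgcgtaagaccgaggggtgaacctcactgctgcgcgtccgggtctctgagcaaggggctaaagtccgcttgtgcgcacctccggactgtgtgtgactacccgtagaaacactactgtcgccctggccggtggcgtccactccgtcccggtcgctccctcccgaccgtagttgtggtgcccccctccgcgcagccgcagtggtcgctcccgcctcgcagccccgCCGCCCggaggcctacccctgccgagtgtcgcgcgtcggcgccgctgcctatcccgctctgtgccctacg
Uhrf1: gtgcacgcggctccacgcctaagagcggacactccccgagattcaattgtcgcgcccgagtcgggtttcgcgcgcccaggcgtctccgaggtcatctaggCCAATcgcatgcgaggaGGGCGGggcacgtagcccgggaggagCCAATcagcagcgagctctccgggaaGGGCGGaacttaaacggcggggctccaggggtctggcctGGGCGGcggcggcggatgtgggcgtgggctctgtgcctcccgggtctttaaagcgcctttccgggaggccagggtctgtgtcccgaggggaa

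All 6 are rich in G and C, at 73.7% in Setd1a, 66.3% in Bmi1, 71% in Suz12, 72.3% in Kdm1b, 69.7% in Hdac2 and 68.3% in Uhrf1. They hold between 23 CpG dinucleotides (Bmi1) and 41 (Suz12), where the median over 32851 RefSeq promoters of this length was 7 and that over the 68 promoters found for 48 of the 60 genes was 28. Bmi1 and Kdm1b each carry 6 Sp/KLF matches, and some of those in Bmi1 overlap each other. Suz12 and Uhrf1 each carry 3. Hdac2 has 1 match, 20 bases before the 5′ end, and Setd1a has none. CCAAT occurs 2 times in Uhrf1 and 1 time in Suz12. None of the 6 printed promoters matched any of the other motifs searched.

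The 60 genes were listed or not as follows. Filled squares in the chart of listed positions carry the number of distinct positions under the gene's own name, and open squares mark promoters with a position under another name only.

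**Figure D1:**
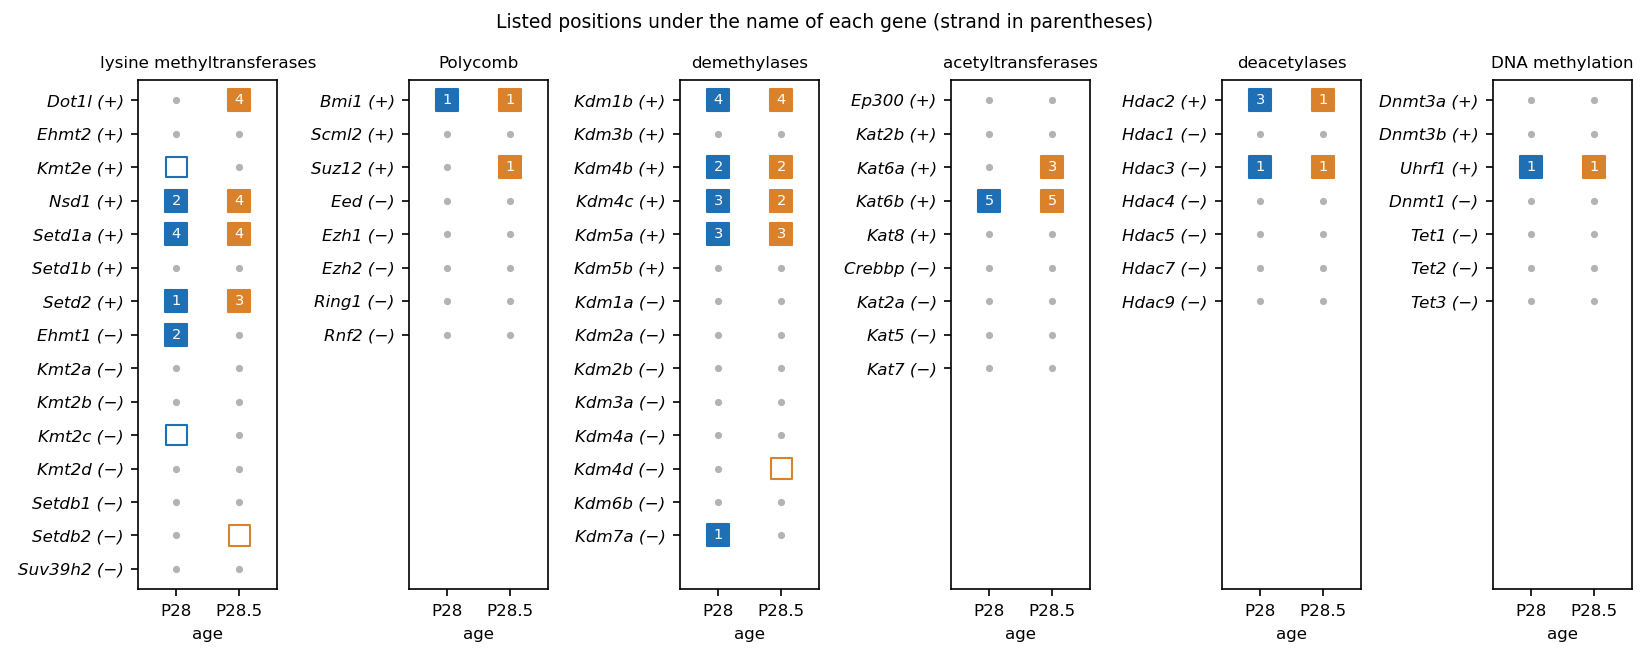
Each panel is a class of genes, with genes on the vertical axis (strand in parentheses) and age on the horizontal axis. A filled square holds the number of listed positions under the gene's name, an open square marks a gene with no row of its own but a listed position under another name within 2000 bp of one of its 5′ ends, and a grey dot marks neither. Of the 17 genes with a filled square, 14 are on the plus strand, and 12 have one at both ages.

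Among the lysine methyltransferases, 4 of 15 had a row at P28 (26.7%, background 16.8%) and 4 at P28.5 (26.7%, background 11.6%). At both ages, 3 were listed (20%, background 8.48%). Setd1a, Setd2 and Nsd1 were the 3, Ehmt1 was listed at P28 alone and Dot1l at P28.5 alone. The P28 rows of Setd2 and Ehmt1 lay more than 2000 bp from the 5′ ends of those genes. Counting only rows within 2000 bp left Setd1a and Nsd1 of the 15 at P28 (background 13.7%), and the same genes at both ages. The listed genes cover methylation at different histone residues, H3K4 for Setd1a, H3K36 for Setd2 and Nsd1, H3K9 for Ehmt1 and H3K79 for Dot1l.

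Setd1a (GeneID 233904, chr7:127777389-127800122, plus strand) encodes the catalytic subunit of a COMPASS complex that trimethylates H3K4 at promoters. It had 4 rows at each age, at its single annotated 5′ end, 500 bp upstream of it and 225 and 459 bp downstream. The 4 positions were the same at P28 and P28.5.

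Setd2 (GeneID 235626, chr9:110532500-110618633, plus strand) encodes the enzyme that trimethylates H3K36 over transcribed gene bodies. Its name appeared at both ages, but at different places. At P28 the name stood on 1 row at 110529296, which lies 3204 bp upstream of the nearest annotated 5′ end, outside the gene and at no annotated transcript end. The observed to expected CpG ratio within 500 bp of that position was 0.203, below the median of 0.516 around the 5′ ends of all protein-coding genes. At P28.5, 6 rows at 3 positions lay 137, 131 and 16 bp upstream of the annotated 5′ end, so by position Setd2 had a listed promoter at P28.5 alone.

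Nsd1 (GeneID 18193, chr13:55209782-55318325, plus strand), whose product dimethylates H3K36, has 18 annotated 5′ ends. The 2 rows at P28 (55210604 and 55210614) lay 110 and 100 bp from one of these. The 5 rows at P28.5 lay between 55212029 and 55212340, at 1 to 65 bp from other 5′ ends of the gene. No Nsd1 position was shared by the ages, and the positions at each age lay nearest to different annotated 5′ ends of the gene.

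Dot1l (GeneID 208266, chr10:80755101-80795461, plus strand), the H3K79 methyltransferase, was unlisted at P28, the closest row being that of Plekhj1 at 43386 bp. At P28.5 it had 6 rows at 4 positions from 80755130 to 80755220, each 3 to 17 bp from an annotated 5′ end of the gene.

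Ehmt1 (GeneID 77683, chr2:24790769-24919643, minus strand) encodes GLP, which with its partner G9a dimethylates H3K9. All 8 of its rows were at P28 and at 2 positions, 24925352 and 24925355, that lie 5709 and 5712 bp upstream of its own 5′ end. Both positions equal annotated 3′ ends of Arrdc1, the neighbouring gene on the minus strand, and the CpG ratio there was 0.207. By position, then, the rows named Ehmt1 stand at the end of another gene and not at the Ehmt1 promoter. At P28.5 the nearest listed position was 55663 bp from an Ehmt1 5′ end and carried the name Mrpl41.

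The other 10 lysine methyltransferases had no row. On the plus strand these were Kmt2e, Setd1b and Ehmt2, the gene for G9a. Setd1b was 202255 bp from the nearest listed position at P28 (Bcl7a) and 252605 bp at P28.5 (Mlxip), and Ehmt2 was 3904 bp from one at both ages (Zbtb12). Kmt2e, which encodes a SET domain protein with a PHD finger, was listed by position if not by name. At P28, 4 rows named 5031425E22Rik lay as near as 93 bp to its 5′ end, and at P28.5 the nearest position was 666112 bp away.

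On the minus strand, Kmt2a, Kmt2b, Kmt2c and Kmt2d, which encode the MLL family of H3K4 methyltransferases, and the H3K9 methyltransferase genes Setdb1, Setdb2 and Suv39h2 had no row of their own. Kmt2c had a row of 4831440E17Rik 942 bp from its 5′ end at P28. Setdb2 had 2 rows of Cab39l, the gene that starts 54 bp away on the plus strand, 75 bp from its 5′ end at P28.5. The remaining 5 lay between 7540 bp (Kmt2d, near Rhebl1 at P28.5) and 128259 bp (Setdb1, P28) from the nearest listed position.

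Of the 8 Polycomb genes, Bmi1 was listed at both ages and Suz12 at P28.5 alone (P28 12.5%, P28.5 25%, backgrounds 16.8% and 11.6%). Bmi1 (GeneID 12151, chr2:18677018-18686629, plus strand) encodes PCGF4, a RING finger partner in Polycomb repressive complex 1, and had 1 row at its own 5′ end at each age. Suz12 (GeneID 52615, chr11:79993106-80034123, plus strand) encodes a core subunit of Polycomb repressive complex 2. Both of its rows were at P28.5 and at its own 5′ end, whereas the nearest position at P28 was 96273 bp off, under the name Atad5. The promoters of these genes, printed above, differ in that Bmi1 has no CCAAT and Suz12 has 1.

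No row was named for the other subunits of these complexes. Ezh1 and Ezh2 (the methyltransferases), Eed (which binds the methylated lysine), Ring1 and Rnf2 (the ubiquitin ligases) are all on the minus strand, and the nearest of them to a listed position was Ring1, 7132 bp from a row of Rxrb at both ages. Ezh2, the main H3K27 methyltransferase gene, was 240391 bp (P28) and 998613 bp (P28.5) from the nearest, and Ezh1, Eed and Rnf2 ranged from 52740 to 495204 bp. Scml2, which encodes a germline Polycomb protein and lies on the plus strand of the X chromosome, was 37872105 bp from the nearest listed position at P28 (Astx6) and 9279243 bp at P28.5 (Huwe1).

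Of the 14 demethylases, 5 had a row at P28 (35.7%, background 16.8%) and 4 at P28.5 (28.6%, background 11.6%). Kdm1b, Kdm4b, Kdm4c and Kdm5a were listed at both ages, and Kdm7a was named at P28 alone, on a row 58877 bp from its nearest 5′ end. Each of the 4 had at least 1 row at a base annotated as its own 5′ end at both ages.

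Kdm1b (GeneID 218214, chr13:47043373-47085279, plus strand) encodes LSD2, a flavin-dependent H3K4 demethylase. It had 8 rows at each age, at 4 positions from 47043467 to 47043499 that lay 0, 3, 4 or 5 bp from an annotated 5′ end. The 4 positions were the same at both ages. Tpmt, which encodes thiopurine methyltransferase, starts on the minus strand 129 to 161 bp from these positions, and the lists cannot tell which of the 2 genes the ARID2 signal belonged to.

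Kdm4b (GeneID 193796, chr17:56325970-56403774, plus strand) and Kdm4c (GeneID 76804, chr4:74242497-74405864, plus strand) encode JmjC demethylases of H3K9 and H3K36. Kdm4b had 11 rows at each age, the most of any of the 60 genes, of which 10 shared the 5′ end at 56326033 and 1 stood at the 5′ end at 56326050. Kdm4c had 3 rows at P28, at 74251879 (its own 5′ end), 74251966 and 74252094, and the first 2 of these again at P28.5. These starts lie 9382 bp or more inside the gene from its outermost 5′ end. The CpG ratio was 0.806 at the listed start and 0.182 at the outermost one, so the listed positions fell on the CpG-rich internal promoter.

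Kdm5a (GeneID 214899, chr6:120364099-120444574, plus strand) encodes a JmjC demethylase of H3K4. Its 4 rows were the same at both ages, 2 at annotated 5′ ends (120364099 and 120364124) and 2 that shared a position 99 bp downstream. Ccdc77 starts on the minus strand 44 to 69 bp from these annotated starts, and here too the lists cannot tell the neighbours apart.

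Kdm7a (GeneID 338523, chr6:39136620-39206773, minus strand), which encodes a JmjC demethylase with a PHD finger, was named on 1 row at P28, at 39265650. That position is 58877 bp upstream of the nearest Kdm7a 5′ end, equals the 3′ end of the annotated gene Gm26008, and had a CpG ratio of 0.0804. It was the farthest from its gene among the positions listed for the 60 genes, and it is not at the Kdm7a promoter. At P28.5 the nearest listed position to a Kdm7a 5′ end was 213605 bp away.

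The 9 unlisted demethylase genes were Kdm3b and Kdm5b on the plus strand and Kdm1a, Kdm2a, Kdm2b, Kdm3a, Kdm4a, Kdm4d and Kdm6b on the minus strand. Kdm3b was 17499 bp (Fam53c) and Kdm5b 65518 bp (Rabif) from the nearest listed position at both ages. Kdm4d had 2 rows of Cwc15, a splicing factor gene on the other strand, 82 and 97 bp from its 5′ end at P28.5, and 201836 bp separated it from the nearest position at P28. Kdm6b, the gene for an H3K27 demethylase, was 13113 bp (P28) and 13838 bp (P28.5) from rows of Naa38 when measured from its 5′ end. Kdm3a, whose product acts on H3K9 and is needed for sperm chromatin condensation, lay 198100 bp and 64806 bp from the nearest listed position. Kdm1a, Kdm2a, Kdm2b and Kdm4a were 50162 to 440709 bp from the nearest row at either age.

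Of the 9 acetyltransferases, Kat6b was listed at both ages and Kat6a at P28.5 alone (P28 11.1%, P28.5 22.2%, backgrounds 16.8% and 11.6%). These paralogs encode the MORF and MOZ enzymes, MYST acetyltransferases of histone H3 that work with BRPF scaffold proteins. Kat6b (GeneID 54169, chr14:21499216-21672478, plus strand) had 5 rows at 5 positions, 21500440 to 21500452, at both ages. These lie 2 to 14 bp from an annotated 5′ end. The nearest of them, 21500452, is 1236 bp inside the outermost 5′ end of the gene, and the CpG ratio was 0.841 there against 0.547 at the outermost. Kat6a (GeneID 244349, chr8:22859442-22943259, plus strand) had 3 rows at P28.5 only, at 22859516, 22859535 and 22859539, which are 30, 11 and 7 bp from an annotated 5′ end. The nearest position at P28 was 265379 bp away (Vdac3).

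Ep300, Kat2b and Kat8 on the plus strand and Crebbp, Kat2a, Kat5 and Kat7 on the minus strand had no row. Ep300 and Crebbp encode the coactivators p300 and CBP, and the nearest listed positions to Ep300 were 77473 bp off at P28 (L3mbtl2) and 119893 bp at P28.5 (Rbx1). Kat8, the gene for the H4K16 acetyltransferase MOF, was 49479 bp and 35712 bp from rows of Zfp668, and Kat2b was 87540 bp from rows of Rab5a at both ages. At Kat5, which encodes TIP60, 6 rows at P28 stood at 5603014, the base annotated as its 3′ end, under the name of its neighbour Rnaseh2c. No such row was present at P28.5. Crebbp, Kat2a and Kat7 lay 74645 to 392518 bp from the nearest listed position.

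Hdac2 and Hdac3 were the deacetylases listed, both at both ages, of 7 (28.6%, backgrounds 16.8% at P28 and 11.6% at P28.5). Hdac2 (GeneID 15182, chr10:36974297-37001889, plus strand) encodes a catalytic subunit of the NuRD, SIN3 and CoREST corepressors. It had 3 rows at P28, at its own 5′ end (36974544) and at 36975112 and 36975116, which are 23 and 27 bp from a second start of the gene, and the row at the 5′ end was the only one at P28.5. Hdac3 (GeneID 15183, minus strand of chromosome 18) encodes the deacetylase of the NCoR and SMRT corepressors. It was the only minus-strand gene of the 60 with a row near its own 5′ end, 69 bp upstream at 37955084, and it was so at both ages. That position is also 30 bp from the 5′ end of Rell2 on the plus strand, and a further row under the name Rell2 lay 544 bp from the Hdac3 5′ end at both ages. The other deacetylase genes, Hdac1, Hdac4, Hdac5, Hdac7 and Hdac9, are all on the minus strand and had no row, with distances to the nearest listed position from 18693 bp (Hdac5) to 1380659 bp (Hdac9, P28.5).

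Of the 7 genes of DNA methylation, Uhrf1 alone was listed, at both ages (14.3%, backgrounds 16.8% at P28 and 11.6% at P28.5). Uhrf1 (GeneID 18140, chr17:56303337-56323486, plus strand) encodes the protein that reads hemimethylated DNA and brings the maintenance enzyme DNMT1 to it. Its 2 rows at each age stood at its own 5′ end at 56304313, 976 bp inside the outermost 5′ end, with a CpG ratio of 0.839 at the listed start and 0.55 at the outermost. Uhrf1 and Kdm4b lie near each other on the same strand, and their listed starts are 21720 bp apart. The de novo methyltransferase genes Dnmt3a and Dnmt3b, on the plus strand, were 374425 bp or more (Dnmt3a) and 80525 bp or more (Dnmt3b) from any listed position. Dnmt1, Tet1, Tet2 and Tet3 are on the minus strand and had none nearer than 33164 bp, the distance of Tet1 from a row of Slc25a16.

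Across the listed genes, the positions lay close to annotated starts, as the plot of offsets shows. The 54 rows at P28 stood at 33 positions with a median distance of 13 bp from the nearest 5′ end of the named gene, and 29 of the 33 (87.9%) were within 2000 bp. The 61 rows at P28.5 stood at 39 positions with a median distance of 5 bp, and all 39 were within 2000 bp, the farthest at 500 bp. For all listed protein-coding genes the medians were 3 and 1 bp, and 85.5% and 98.6% of positions were within 2000 bp. The median gene of the 60 that was listed had 3 rows at P28 and 4 at P28.5, with a range of 1 to 11 at either age. All listed protein-coding genes had a median of 2 at each age. The 60 genes had a median of 3.5 annotated 5′ ends, against 2 over all protein-coding genes. Several rows can share 1 position, and the number of rows is not a measure of ARID2 signal.

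**Figure D2:**
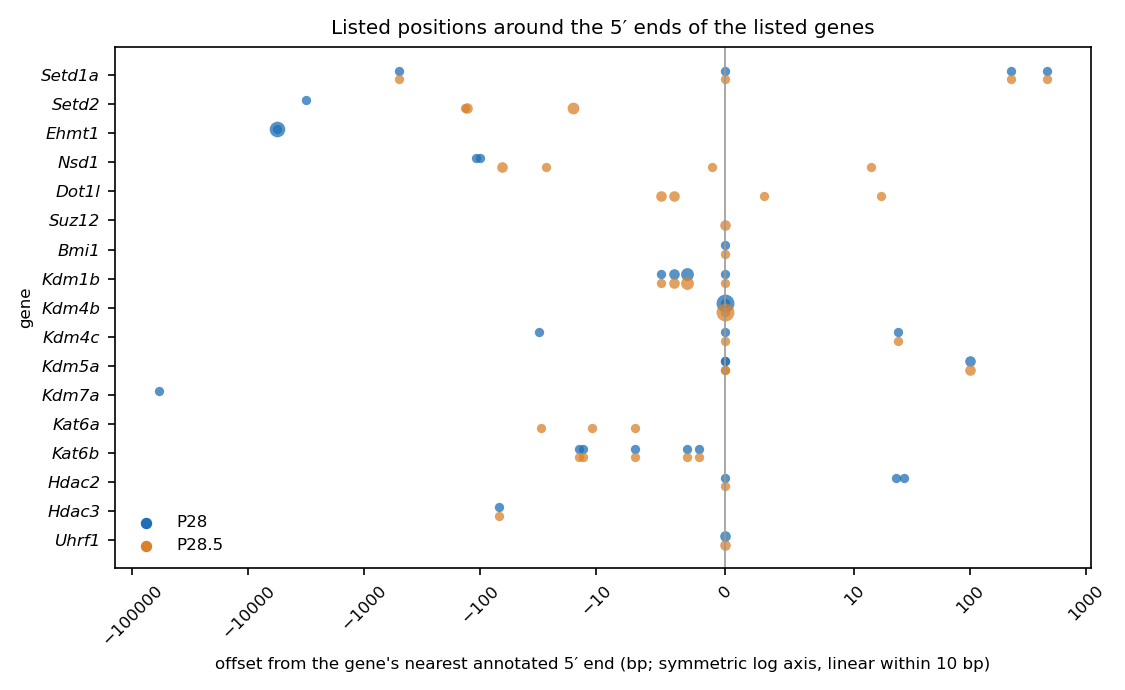
Each point is a listed position of one of the 17 listed genes (vertical axis), placed by its offset from the nearest annotated 5′ end of that gene (horizontal axis, bp, symmetric log scale that is linear within 10 bp, negative values upstream), with larger points for more rows. Blue points (P28) of Setd2, Ehmt1 and Kdm7a stand 3204, 5709 to 5712 and 58877 bp upstream, and all orange points (P28.5) lie within 500 bp.

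Counting only rows within 2000 bp of the gene's own 5′ end changed the comparison of the ages. On that count P28 had 11 genes (background 13.7%) and P28.5 had 15 (background 11.4%). All 11 were among the 15, and Setd2, Dot1l, Suz12 and Kat6a made up the other 4. By rows under their own names, then, none of the 60 was in the P28 list only. Kmt2c and Kmt2e had a position under another name within 2000 bp at P28 and none at P28.5. For Setdb2 and Kdm4d the reverse held. Of all 21774 protein-coding genes, 1192 had a row near their own 5′ end at the earlier age only and 691 at the later age only. Counts of 0 and 4 among 60 genes are small, and their difference from these was not tested. Without replicate values, whether a TSS listed at 1 age differed in signal between the ages was not tested.

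Among the 12 genes named at both ages, 10 (83.3%) shared at least 1 position and 8 (66.7%) had identical sets of positions. The 8 were Setd1a, Bmi1, Kdm1b, Kdm4b, Kdm5a, Kat6b, Hdac3 and Uhrf1. Kdm4c and Hdac2 lost 1 and 2 positions at P28.5, and Setd2 and Nsd1 shared none. Of the 1847 protein-coding genes named at both ages, 1801 (97.5%) shared a position and 1524 (82.5%) had identical sets.

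Strand divided the 60 genes more than class did. Of the 25 on the plus strand, 11 had a row at P28 (44.0%) and 14 at P28.5 (56.0%). Of the 35 on the minus strand, 3 (8.57%) and 1 (2.86%) had one. All 11 plus-strand genes listed at P28 were listed again at P28.5. The plus-strand shares were above the 26% and 20.4% of all plus-strand genes, and the minus-strand shares were near the 7.61% and 2.86% of all minus-strand genes. By class, shares ran from 11.1% (acetyltransferases) to 35.7% (demethylases) at P28 and from 14.3% (DNA methylation) to 28.6% (demethylases and deacetylases) at P28.5, and a class of 7 genes moves by 14.3 percentage points with a single gene. The classes also differ in strand. At P28.5 the listed plus-strand genes were 4 of 7 lysine methyltransferases, 2 of 3 Polycomb genes, 4 of 6 demethylases, 2 of 5 acetyltransferases, the 1 deacetylase and 1 of 3 genes of DNA methylation.

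**Figure D3:**
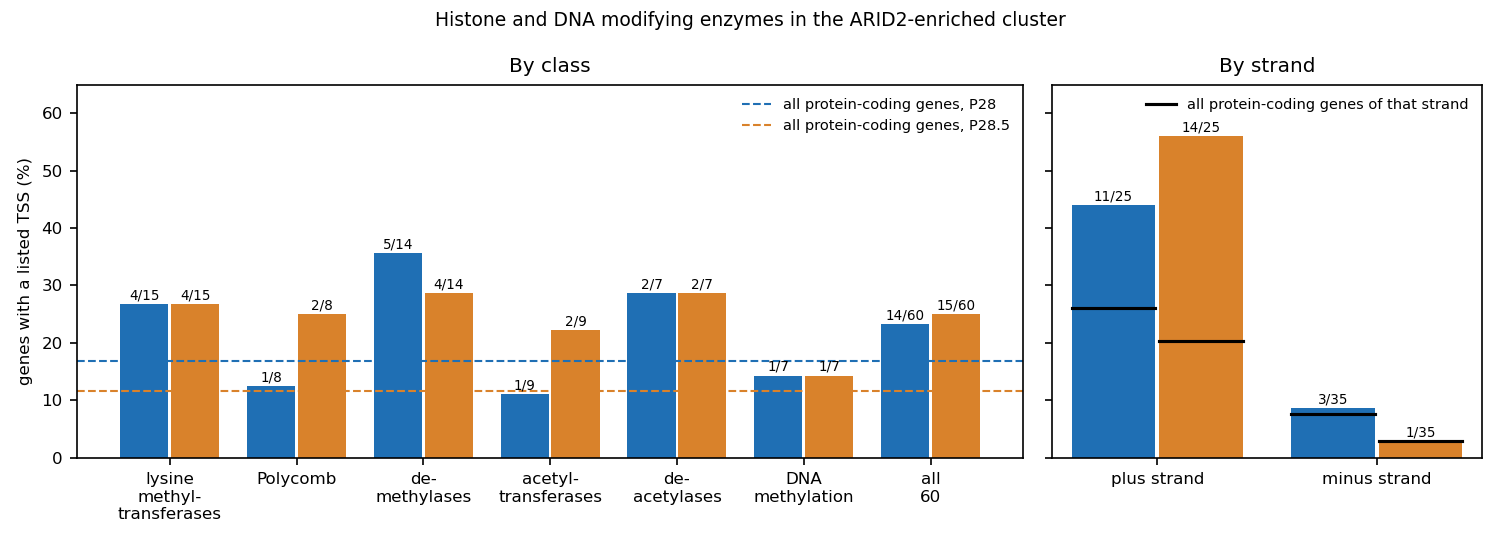
Bars give the percentage of genes with a listed TSS under their name (vertical axis) at P28 (blue) and P28.5 (orange), by class on the left and by strand on the right, with listed and total genes printed above each bar. Dashed lines (16.8% and 11.6%) and black lines mark the shares over all protein-coding genes and over those of the same strand. There are no error bars because each list came from averaged replicates, and the plus-strand bars (44.0% and 56.0%) stand above their black lines while the minus-strand bars (8.57% and 2.86%) lie near theirs.

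A listed position under any name within 2000 bp of a 5′ end gave 13 of the 60 genes at P28 (background 17.3%) and 17 at P28.5 (background 14.8%). Promoters that gained a place this way were those of Kmt2c and Kmt2e at P28 and of Setdb2 and Kdm4d at P28.5. Of the 35 minus-strand genes, 14 have a plus-strand 5′ end within 2000 bp, and of these 14, Kmt2c and Hdac3 (14.3%) had a listed position at P28 and Setdb2, Kdm4d and Hdac3 (21.4%) at P28.5. None of the 21 without such a neighbour did at either age. Over all minus-strand protein-coding genes the shares were 34.8% and 33.4% with a plus-strand neighbour and 1.52% and 0.714% without one. Minus-strand promoters thus appeared in these lists mostly beside a plus-strand start.

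The other 10 of those 14 genes were Kmt2b, Ezh2, Ring1, Kdm2a, Kdm2b, Kdm6b, Kat2a, Kat7, Hdac7 and Tet3. Ezh2 starts 15 bp from F830010H11Rik, Kdm6b 51 bp from Gm51903, Kmt2b 53 bp from Gm32082 and Tet3 77 bp from B230319C09Rik. No position was listed within 2000 bp of these promoters at either age. Whether the neighbours' transcripts were in the set of TSSs that the authors clustered is not given in the sources used here.

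CpG content was high over the 60 genes as a whole. Within 500 bp of the outermost 5′ end the ratio of observed to expected CpG had a median of 0.799 over the 60 genes, against 0.516 over all protein-coding genes, and 31 of the 60 were in the highest of 5 equal groups of genes by this ratio. The 17 genes listed at either age had a median of 0.874 (range 0.182 to 1.1) and the 43 listed at neither had 0.778. Over all genes the medians were 0.73 for listed and 0.424 for unlisted. In the highest group, 28.8% of all genes had a row at P28 and 27% at P28.5, and of the 31 genes in it 8 (25.8%) and 9 (29%) had one. Within that group, then, the genes for modifying enzymes were listed about as often as the others.

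**Figure D4:**
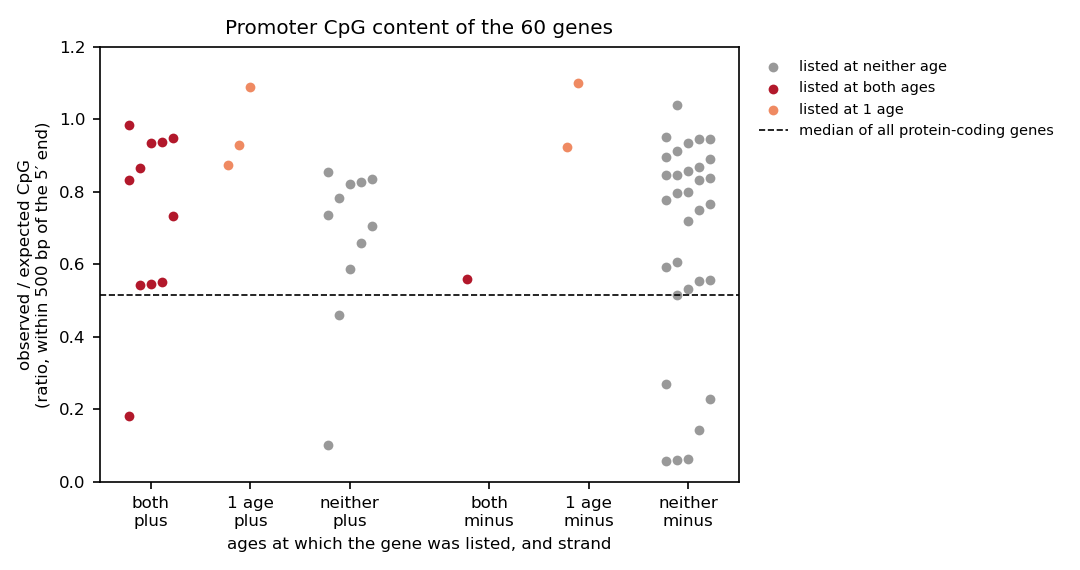
Each point is one of the 60 genes, with the observed to expected CpG ratio within 500 bp of its outermost 5′ end on the vertical axis and its strand and the number of ages at which it was listed on the horizontal axis. The dashed line is the median of all protein-coding genes (0.516). Most listed genes (red and orange) lie above it, with Kdm4c (0.182) below, and most unlisted genes (grey) lie above it as well.

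Matching on strand and CpG content left a smaller gap to the background. Of the 13 plus-strand genes in the highest group, 6 had a row at P28 and 9 at P28.5, where the shares over all such genes were 46.2% and 47%. Of the 18 minus-strand genes in it, 2 and 0 had one, where the shares were 11.3% and 6.94%. If each of the 60 were listed as often as all protein-coding genes of its strand and CpG group, 12.5 genes would be listed at P28, where 14 were, and 10.1 at P28.5, where 15 were. The whole of the surplus at P28.5 was on the plus strand, at 14 genes against 8.5. The genes were chosen with these lists known, and no test was made of these differences. The CpG group was set at the outermost 5′ end of each gene. For Kdm4c, Nsd1, Kat6b and Uhrf1 the CpG ratio was lower there than at the listed position nearest to a 5′ end. How this bears on the counts of 12.5 and 10.1 was not tested.

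The CpG ratio was also taken at 1 listed position per gene and age, the one nearest to a 5′ end of the gene. It had a median of 0.818 at P28 (14 genes, range 0.0804 to 0.984) and 0.864 at P28.5 (15 genes, range 0.627 to 1.1). The low values at P28 belonged to the rows of Kdm7a, Setd2 and Ehmt1 that lie away from those genes. Listed starts of Kdm4c, Kat6b and Uhrf1 were each richer in CpG than the outermost start of the same gene, as given above.

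GGGCGG, the core of Sp/KLF sites, occurred in 36 of the 48 genes with a promoter sequence (75.0%), in 66.2% of their 68 promoters and in 35.7% of all promoters. Of the 12 listed genes among the 48, 11 had it, as did most of the unlisted ones. A promoter counted for a gene need not hold its listed position. GGGCGG contains a CpG, and the 68 promoters had a median of 28 CpG against 7 over all promoters. Whether CpG content accounts for the difference in shares was not tested. The NRF1 motif GCGCNTGCG was found in 14.7% of the 68 promoters and 6.31% of all, and the CRE core TGACGT in 14.7% and 7.51%. CCGGAAG (ETS) and AAGATGGC (YY1) were near the background, at 11.8% against 8.86% and 2.94% against 2.75%. TAACNG (MYB) was in 10.3% against 23.3%. CCAAT (NFY) was in 33.8% against 37.4%. The TATA box TATAAA was in 1.47% against 13.6%. All motifs were searched on both strands in the 300 bases from 250 before to 50 after the 5′ end, none of them contains another, and a match is a description of the letters only.

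Genes without a row were mostly far from any listed position. The 46 at P28 lay a median of 90073 bp from one and the 45 at P28.5 a median of 77184 bp, where the medians over all unlisted protein-coding genes were 129694 and 210996 bp. Within 2000 bp of a listed position were 2 at each age (4.35% and 4.44%), against 4.14% and 3.79% of all unlisted genes.

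A wider list of 124 genes for other enzymes, subunits and readers of the same pathways was followed for comparison, of which 123 matched. At P28, 37 of them were listed (30.1%, background 16.8%), at P28.5, 34 (27.6%, background 11.6%), and at both ages 23 (18.7%, background 8.48%), with 14 at the earlier age only and 11 at the later. Of all 21774 protein-coding genes, 1814 were listed by name at the earlier age only and 681 at the later only, and the difference was not tested. On the plus strand 34 and 32 of 68 were listed (50% and 47.1%, where all plus-strand genes had 26% and 20.4%), and on the minus strand 3 and 2 of 55 (5.45% and 3.64%, where all minus-strand genes had 7.61% and 2.86%). The division by strand thus recurred. Genes of this list are given below by the names on the rows, and a promoter may also have been listed under a neighbour's name.

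In the Polycomb group 10 of 30 further genes had a row at each age (33.3%, backgrounds 16.8% and 11.6%), with 7 at both ages. The 7 were Jarid2 and Mtf2, which encode accessory subunits of Polycomb repressive complex 2, Phc2, Pcgf1 and Pcgf3, which encode subunits of Polycomb repressive complex 1, Asxl1, whose product activates the H2A deubiquitinase BAP1, and Rbbp4, which encodes a histone chaperone shared by several complexes. Mtf2 had 11 rows at each age. Phc2 shared no position between the ages, standing at 128741923 at P28 and at 128654698 and 128654702 at P28.5. The Rbbp4 row lay 222 bp from its own 5′ end and 3 bp from that of Zbtb8os. Cbx2, L3mbtl2 and Asxl3 were listed at P28 alone, and Pcgf5, Bap1 and Asxl2 at P28.5 alone.

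Of 21 deacetylase and corepressor genes P28 listed 4 (19%, near the background of 16.8%) and P28.5 listed 7 (33.3%, background 11.6%). Sirt2, Sin3a and Sin3b had the same number of rows at both ages (3, 5 and 3), and Sirt5, Mta2 and Chd4 were listed at P28.5 alone. Sin3a and Sin3b encode the scaffolds of the SIN3 complexes and Chd4 and Mta2 subunits of NuRD, in both of which HDAC2 acts. Chd4 had 13 rows at P28.5. Rcor1, the gene for CoREST, was named on 5 rows at P28 that stood 11011 to 11015 bp upstream of it, at the 5′ end of Gm35846, and on 1 row at P28.5 that lay 676 bp upstream.

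Of 20 further genes placed in the lysine methyltransferase class, 6 were listed at each age (30%, backgrounds 16.8% and 11.6%) and 4 at both. Nsd3, a paralog of Nsd1, had 2 rows at P28 and 9 at P28.5, and Kmt5b, which encodes an H4K20 methyltransferase, had 4 and 11. Setd3 and Smyd4 were the other genes listed at both ages, Setd5 and Setd6 were named at P28 alone, and Kmt5a and Smyd5 at P28.5 alone. The Setd3 rows lay 120 and 126 bp from its own 5′ end and 101 and 95 bp from that of Ccnk. By position the Setd5 promoter was in both lists, since a row of Gt(ROSA)26Sor lay 5 bp from one of its 5′ ends at P28.5. Among 9 COMPASS subunit genes, Rbbp5 was listed at both ages and Wdr5 and Men1 at P28 alone (P28 33.3%, P28.5 11.1%). Prmt7 of the 9 arginine methyltransferases was listed at both ages and Prmt3 at P28 alone (P28 22.2%, P28.5 11.1%). The P28.5 shares of both classes were near the background of 11.6%.

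Brpf1, the scaffold partner of the enzymes of Kat6a and Kat6b, had 14 rows at each age, the most in the wider list. Of the 14 acetyltransferase genes and cofactors in that list, Hat1 and Msl2 were also listed at both ages. Kat14, Trrap and Brpf3 were listed at P28 alone and Ncoa3 at P28.5 alone. Shares of the 14 were 42.9% at P28 and 28.6% at P28.5 (backgrounds 16.8% and 11.6%). The Brpf3 row lay 2770 bp from the nearest of its 5′ ends. Of 12 further demethylases and JmjC proteins Riox2 was listed at both ages and Jmjd1c and Jmjd6 were named at P28 alone. That was 25% at P28 and 8.33% at P28.5, against backgrounds of 16.8% and 11.6%. The 8 rows of Jmjd6 stood at its 3′ end, 6017 bp from its nearest start. A row of Mettl23 lay 4 bp from a Jmjd6 5′ end at both ages, so by position its promoter was in both lists. Of 8 further genes of DNA methylation Uhrf2, a paralog of Uhrf1, and Mbd2, a reader of methylated CpG, were listed at both ages. Dnmt3l, a cofactor of de novo methylation in germ cells, had 3 rows at P28 alone, and Tdg and Mbd1 were listed at P28.5 alone. Shares of the 8 were 37.5% at P28 and 50% at P28.5.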

How the data were processed

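The series holds CUT&RUN libraries for ARID2 and BRG1 and controls without primary antibody. The authors trimmed the reads with TrimGalore, aligned them to mm10 with Bowtie2, made scaled coverage tracks with deepTools and csaw, took log2 ratios to the control, averaged replicates and clustered RefSeq TSSs by k-means. The deposited lists analysed here hold, per age, positions and gene names of ARID2-enriched TSSs, with no counts or signal, so depth and replicate spread are not known from them. The BRG1 libraries, the signal tracks of single replicates and the peaks were not analysed here.

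Listed positions, read as 1-based coordinates, were matched to transcript ends annotated by RefSeq on GRCm38.p6, the assembly of mm10. A gene was called listed when a row carried its symbol. The annotation release the authors used is not given in the sources used here. Alternatives counted positions within 2000 or 500 bp of a 5′ end. CpG counts within 500 bp of the outermost 5′ end were divided by those expected from the C and G content, and genes were split into 5 equal groups by this ratio. Promoter sequences came from RefSeq. Shares over 21774 protein-coding genes are the background, and no test was run. The ways of counting a gene as listed were tested on simulated lists. The 60 genes and the wider list were chosen with earlier results of these data known. All 60 genes are named, as are wider genes with a row, genes whose rows lie within 2000 bp of a 5′ end of the 60, and the nearest listed gene of an unlisted one. Kdm1b and Suz12 promoters were chosen after the lists were seen, and Kdm4b, which the rule named, has no entry in the promoter table. Python 3.11.15, numpy 2.4.6, pysam 0.24.0 and matplotlib 3.10.9 were used.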

Additional observations from a re-analysis of the deposited data

How the results depend on the processing

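The number of genes listed by name, 14 at P28, 15 at P28.5 and 12 at both ages, moved to between 11 and 14, between 15 and 17 and between 10 and 12 when positions within 2000 or 500 bp of a 5′ end, rows near the gene's own 5′ end, symbols as written or a common position were required, and the 6 class counts each stayed within 1.5 times their value when any position within 2000 bp was counted. The genes behind an unchanged class count were not always the same. For lysine methyltransferases at P28, counting any position within 2000 bp dropped Setd2 and Ehmt1 and added Kmt2c and Kmt2e. Requiring a row near the gene's own 5′ end left only Setd1a and Nsd1 in that class at P28. Shares depended on which genes were counted. The share of the 60 genes listed, 23.3% at P28 and 25.0% at P28.5, was 44.0% and 56.0% for plus-strand genes and 8.57% and 2.86% for minus-strand genes. The background of 16.8% and 11.6% was 10.5% and 6.92% over all annotated genes and 28.8% and 27.0% over the 4354 genes of the highest CpG group. No paired analysis was possible because the lists analysed here were made from averaged replicates, and no replicate could be left out of them. The spread between replicates was not examined, since the tracks of single replicates were not analysed here. The lists hold no counts, and how library depth bears on which TSSs were listed was not tested. Absence from a list is not a measurement of absent ARID2, and a TSS listed at 1 age is not shown to differ between the ages.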
